A study of Homo sapiens with 18 samples.

Results

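The circadian clock genes studied here were PER1, PER2, PER3, CRY1, CRY2, NR1D1, NR1D2, BHLHE40, CLOCK and DBP. They were 10 of the 26485 genes in the deposited count table and were taken by their symbols. The choice was made with earlier results of these data known, so it was not blind to their values. The table came from SW620, a human colon cancer cell line, in which Lonp1, a protease best known from mitochondria, was either silenced with small-interfering RNA (siLonp1) or left in place with a scramble siRNA, and the study asked how Lonp1 bears on the response to heat. Each arm had Ctrl cells kept at 37 °C, HS cells taken after 1 h of heat shock at 42 °C, and HS+REC cells that spent a further 1 h at 37 °C after the same heat shock. That makes 6 groups of 3 libraries, 18 in all. All groups carried a transfected siRNA, the whole series came from 1 cell line, and the sources used here do not state which of a pair of Lonp1 siRNAs went into the sequenced cells. The labels give neither the time of day at which cells were collected nor any step to synchronise their clocks, so each value is an average over cells whose clock phase is unknown, and whether compared groups were collected at the same time of day is not known. In such bulk libraries, fewer cells expressing a gene and less RNA per cell cannot be told apart.

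The clock is a loop of transcription and repression. CLOCK and its partner ARNTL (BMAL1) bind short DNA letters called E-boxes and switch on the PER and CRY genes, whose proteins return to the nucleus and block CLOCK and ARNTL. NR1D1 and NR1D2 (REV-ERB alpha and beta) are nuclear receptors that repress ARNTL, BHLHE40 (DEC1) is an E-box-binding repressor that also answers to stress and growth signals, and DBP is an output factor that binds D-box letters in other clock genes. Heat is a known cue for this loop, since a warm pulse can shift the clock of cultured cells and PER2 is known to respond to heat shock factor 1.

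Depth and labels held for the whole series. Libraries held 30815860 to 47279297 counts, with a median of 40847024, and 12832 genes passed the filter, a CPM (counts scaled to 1 common library total) above 1 in at least 3 libraries. All 10 clock genes passed it, with 82 to 89 counts of DBP in the Ctrl scramble libraries as the thinnest and 8109 to 8481 counts of BHLHE40 in HS siLonp1 cells as the richest group. LONP1 fell in siLonp1 cells from 221 ± 5.6 to 20.4 ± 1.8 CPM (SD, n = 3) in Ctrl, and the heat-shock gene HSPA1A stood at 14.3 CPM at Ctrl, 1976 at HS and 3412 in HS+REC of the scramble arm. The LONP1 left in siLonp1 cells was not level, at 11.7 ± 0.15 CPM in HS and 27.2 ± 1.6 in HS+REC, against 214 and 218 in scramble cells. Of 8 colon epithelial markers 7 passed the filter and CDX1 was at 0 in every library. Of 6 fibroblast markers only LUM and COL1A1 passed, COL3A1 was at 0, and COL1A2 and PDGFRA were below 0.1 CPM in every library, while of 5 leukocyte markers LYZ and CD14 passed and PTPRC and CD3E stayed below 0.1 CPM. Of 4 endothelial markers VWF passed and KDR was at 0 in every library.

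Levels between genes were compared per kilobase of the canonical transcript, in Ctrl scramble cells. BHLHE40 was the most abundant clock gene by that scale, at 25.7 ± 1.2 CPM per kb (SD, n = 3), followed by NR1D2 at 11.5 and CRY1 at 9.39. NR1D1 stood at 7.34 CPM per kb, PER2 at 5.97, CRY2 at 5.05, CLOCK at 4.31 and PER1 at 3.77. PER3 at 1.05 and DBP at 0.900 CPM per kb were the lowest. Libraries of neighbours in this order did not overlap except for CLOCK and PER1, where the lowest CLOCK library stood at 4.05 and the highest PER1 library at 4.11 CPM per kb.

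Promoter stretches are shown for the 5 genes that hold E-box or D-box letters in them, for DBP, which rose most with heat, and for NR1D1, whose HS change differed between the arms. The 10 genes matched 14 start sites in RefSeq (GRCh38.p14), with 4 genes having more than 1. Each stretch runs 5′ to 3′ on the gene's own strand from 250 bases before the start site to 10 after it. Capitals mark the E-box CACGTG and the D-box, TTATGTAA or TTACGTAA or its reverse complement.
PER1, chr17:8152395-8152654, minus strand: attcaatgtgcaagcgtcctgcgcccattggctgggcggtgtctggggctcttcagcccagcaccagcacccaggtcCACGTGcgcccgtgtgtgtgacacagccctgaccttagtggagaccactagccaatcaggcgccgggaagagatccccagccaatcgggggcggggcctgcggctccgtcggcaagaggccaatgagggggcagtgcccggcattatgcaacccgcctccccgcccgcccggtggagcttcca
PER2, chr2:238288601-238288860, minus strand: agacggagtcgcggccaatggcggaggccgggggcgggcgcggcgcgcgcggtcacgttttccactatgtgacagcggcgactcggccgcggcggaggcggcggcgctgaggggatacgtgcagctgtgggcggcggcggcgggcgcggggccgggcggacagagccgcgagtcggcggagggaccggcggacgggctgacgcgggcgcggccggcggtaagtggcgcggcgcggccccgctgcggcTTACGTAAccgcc
PER3, chr1:7784041-7784300, plus strand: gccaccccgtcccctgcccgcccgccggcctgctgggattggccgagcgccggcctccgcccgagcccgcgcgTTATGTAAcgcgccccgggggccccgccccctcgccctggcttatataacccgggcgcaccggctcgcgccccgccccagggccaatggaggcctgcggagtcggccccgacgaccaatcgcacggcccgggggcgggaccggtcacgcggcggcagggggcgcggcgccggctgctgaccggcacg
NR1D1, chr17:40100580-40100839, minus strand: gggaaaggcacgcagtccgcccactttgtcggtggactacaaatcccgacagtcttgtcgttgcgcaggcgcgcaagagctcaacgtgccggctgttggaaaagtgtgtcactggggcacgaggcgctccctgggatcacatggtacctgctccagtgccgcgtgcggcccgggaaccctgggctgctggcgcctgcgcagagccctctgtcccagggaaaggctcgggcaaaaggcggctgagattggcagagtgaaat
NR1D2, chr3:23945871-23946130, plus strand: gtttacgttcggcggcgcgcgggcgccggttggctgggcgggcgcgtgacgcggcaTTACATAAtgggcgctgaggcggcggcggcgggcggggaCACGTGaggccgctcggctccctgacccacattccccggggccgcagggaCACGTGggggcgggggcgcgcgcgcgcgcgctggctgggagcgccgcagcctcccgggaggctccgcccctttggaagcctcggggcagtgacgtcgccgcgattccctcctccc
BHLHE40, chr3:4979187-4979446, plus strand: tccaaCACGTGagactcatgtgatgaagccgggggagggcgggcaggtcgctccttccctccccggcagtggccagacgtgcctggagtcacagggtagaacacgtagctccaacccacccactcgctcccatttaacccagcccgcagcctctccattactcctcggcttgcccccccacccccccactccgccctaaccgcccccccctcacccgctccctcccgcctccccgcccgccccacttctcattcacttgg
DBP, chr19:48637370-48637629, minus strand: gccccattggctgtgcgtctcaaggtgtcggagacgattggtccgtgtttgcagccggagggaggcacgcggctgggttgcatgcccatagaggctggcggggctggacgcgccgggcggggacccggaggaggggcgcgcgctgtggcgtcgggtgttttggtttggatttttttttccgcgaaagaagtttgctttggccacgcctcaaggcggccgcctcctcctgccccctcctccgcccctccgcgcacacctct
The E-box letters begin 173 bases before the PER1 start, 245 before the BHLHE40 start, and 155 and 105 before the second NR1D2 start. The D-box letters begin 3 bases before the PER2 start, 177 before the PER3 start and, on the reverse strand, 194 before the second NR1D2 start. The NR1D1 and DBP stretches hold neither set of letters.

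Over windows of 250 bases before to 50 after the start, CACGTG was in 3 of the 14 clock gene windows, against 7.26% of all 35116 RefSeq windows. The D-box letters were in 3 of 14 windows, against 1.01% of all windows. TGACG, a short form of the cAMP response element searched on both strands, was in 7 of 14 windows, against 24.6% of all windows. These belong to PER2, CRY1, CRY2, NR1D2 and CLOCK. Its full form TGACGTCA, which contains the short form, was in none of the 14 windows and in 1.85% of all windows. The ROR element TAGGTCA was found once, before the second CRY2 start, and in 1.85% of all windows. The heat shock element core GAANNTTC was in none of the 14 windows and in 6.77% of all windows, which says only that these letters are not in those 300 bases. Each match describes letters and is not a bound site.

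Heat shock was compared with Ctrl within each arm, to see which clock genes changed within 1 h at 42 °C. In scramble cells 5 of the 10 genes rose (PER1, PER2, NR1D1, BHLHE40 and DBP) and 1 fell (CRY1), by edgeR's quasi-likelihood test at an adjusted p of at most 0.05. Among all 12832 genes tested, 18.6% rose and 17.3% fell. In siLonp1 cells BHLHE40 and DBP rose, 2 of 10 against 20.2% of all genes, and CRY1, CRY2 and NR1D1 fell, 3 of 10 against 22.1%. The raised count was not stable, at 2 in scramble cells without Ctrl scramble replicate 2 or HS scramble replicate 1 or 2, and at 5 in siLonp1 cells without HS siLonp1 replicate 1, and the difference between arms did not pass for PER1, PER2 or PER3 (adjusted p = 0.85, 0.58 and 0.82). No clock gene passed 2-fold in HS. Of all genes, 2.94% were raised and 0.366% lowered past both limits in scramble, and 3.42% and 1.15% in siLonp1 cells. The median absolute log2 fold change of the 10 genes was 0.26 in scramble and 0.31 in siLonp1 cells, against 0.16 and 0.18 over all genes tested.

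After the recovery hour, HS+REC was compared with the same Ctrl libraries, so the HS and HS+REC changes share their baseline. In scramble cells 5 of 10 clock genes were raised (PER2, PER3, NR1D1, BHLHE40 and DBP), against 21.8% of all genes, and 2 were lowered (CRY2 and NR1D2), against 20.5%. In siLonp1 cells 5 were raised (PER2, PER3, CRY1, BHLHE40 and DBP), against 24.6%, and 3 were lowered (CLOCK, CRY2 and NR1D2), against 26.6%. DBP was the 1 member raised over 2-fold in each arm, where 3.78% of all genes in scramble and 4.51% in siLonp1 cells passed both limits. The plot of every library by group shows several shapes, among them a peak at HS in BHLHE40, a climb through HS+REC in DBP and PER2, a dip at HS in CRY1 and a drop in HS+REC in NR1D2.

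**Figure D1:**
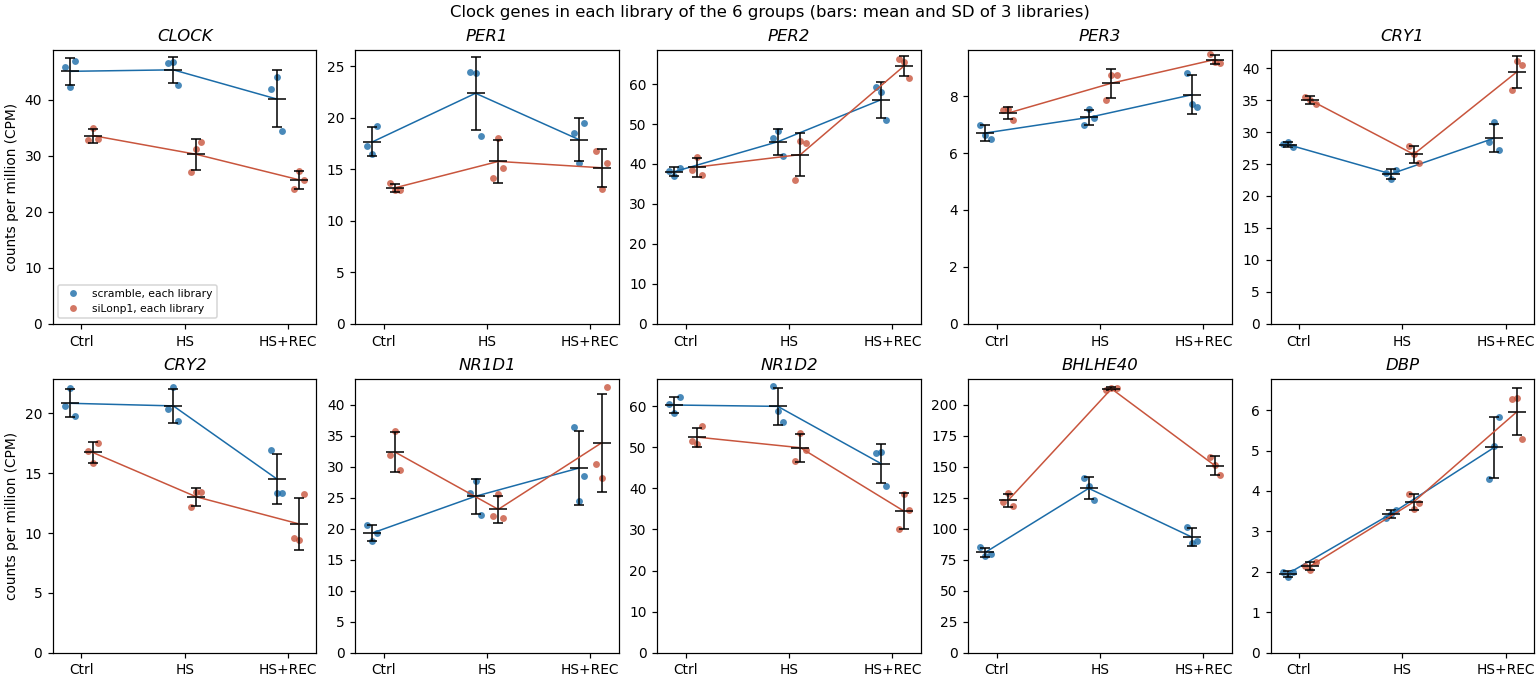
CPM (y axis, from 0) of the 10 clock genes in each library at Ctrl, HS and HS+REC (x axis), scramble in blue and siLonp1 in red, with black bars for the mean and SD of 3 libraries and lines joining the means. BHLHE40 peaks at HS at 132 CPM in scramble and 213 in siLonp1 cells, DBP climbs from 1.95 to 5.08 CPM in scramble cells, and the NR1D1 means go from 19.3 to 25.2 CPM between Ctrl and HS in scramble but from 32.3 to 23.1 CPM in siLonp1 cells.

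HS+REC was also set against HS itself, to separate what changed during the recovery hour. In scramble cells PER2, CRY1 and DBP rose, 3 of 10 against 14.2% of all genes, and PER1, CRY2, NR1D2 and BHLHE40 fell, 4 of 10 against 12.7%. In siLonp1 cells PER2, CRY1, NR1D1 and DBP rose, 4 of 10 against 16.3%, and CLOCK, NR1D2 and BHLHE40 fell, 3 of 10 against 15.6%. These comparisons share the HS libraries with the HS changes above. Of these calls, that of PER1 ended without HS scramble replicate 1 or 2 or HS+REC scramble replicate 2 (adjusted p up to 0.18), that of PER2 in scramble cells without HS scramble replicate 3 (adjusted p = 0.051), and that of CLOCK without HS siLonp1 replicate 2 or 3 or HS+REC siLonp1 replicate 1 or 3 (adjusted p up to 0.17). The PER1 and CLOCK calls also ended in fits of only the groups compared (adjusted p = 0.062 and 0.060). CLOCK in scramble cells, at -0.18 ± 0.08, passed with library size scaling (adjusted p = 0.042) or without HS scramble replicate 3 or HS+REC scramble replicate 2 (adjusted p down to 0.044), and CRY2 in siLonp1 cells, at -0.28 ± 0.11, passed without HS+REC siLonp1 replicate 3 or HS+REC scramble replicate 1 (adjusted p down to 0.0021), and under 3 other settings, library size scaling, no filter on low counts and the likelihood ratio test (adjusted p down to 0.012).

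**Figure D2:**
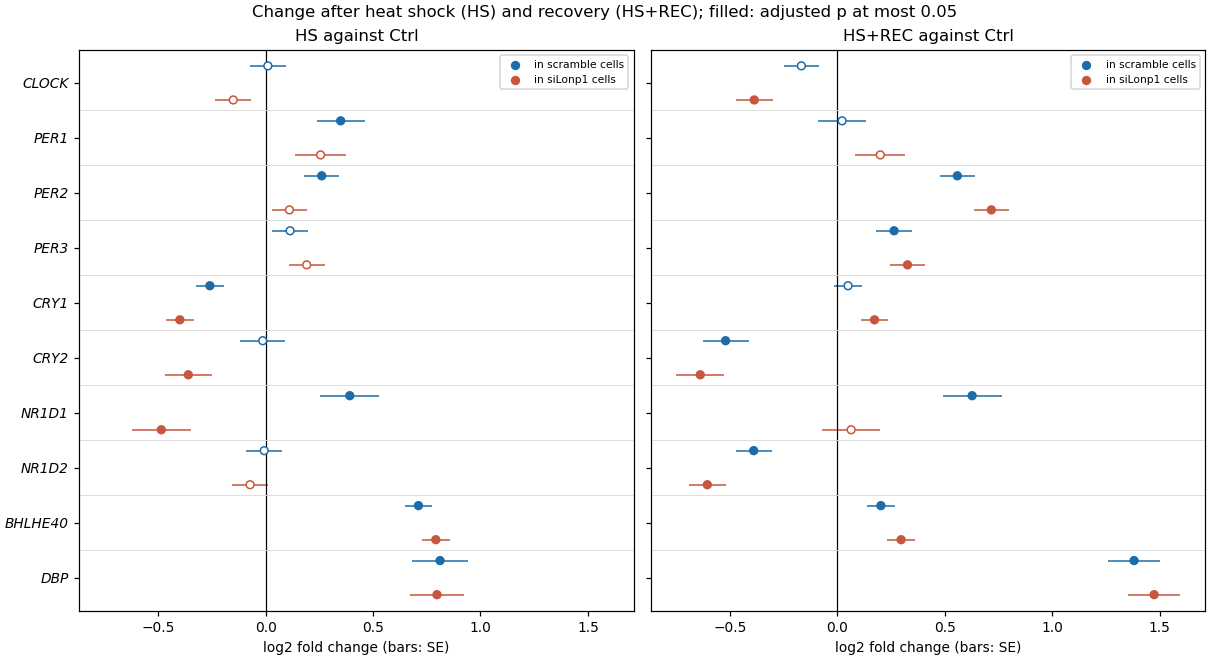
Log2 fold change against Ctrl (x axis, bars show the SE) of the 10 clock genes (y axis) after HS on the left and HS+REC on the right, in scramble (blue) and siLonp1 cells (red), with filled points for an adjusted p of at most 0.05. DBP lies farthest right after HS+REC at 1.38 and 1.47, and the HS points of NR1D1 are both filled and lie on opposite sides of 0, at 0.39 and -0.49.

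CLOCK, the DNA-binding activator of the loop (hg38 chr4:55427903-55546909, minus strand), did not pass the test for heat in scramble cells. It stood at 45.9, 42.4 and 47.0 CPM in the 3 Ctrl libraries, 46.6, 46.8 and 42.6 in HS and 41.9, 44.1 and 34.4 in HS+REC. The HS change was 0.01 ± 0.08 (log2 fold change ± SE, adjusted p = 0.94) and the HS+REC change -0.17 ± 0.08 (adjusted p = 0.11), with overlapping libraries in both. The latter passed without HS+REC scramble replicate 2, at -0.24 (adjusted p = 0.035), and with library size scaling, at -0.25 (adjusted p = 0.019). In siLonp1 cells CLOCK stood at 32.8, 35.0 and 33.0 CPM at Ctrl, 27.1, 31.3 and 32.4 at HS and 24.1, 27.3 and 25.7 in HS+REC. All 3 HS+REC libraries lay below all 3 Ctrl libraries there, a change of -0.39 ± 0.09 (adjusted p = 0.00054). Its opposite-strand neighbour TMEM165, which shares 76 exonic bases with CLOCK, changed by -0.56 ± 0.09 in the same comparison. Whether that overlap enters the CLOCK counts was not tested.

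PER1, a period gene known as an immediate-early responder (hg38 chr17:8140472-8156506, minus strand), was highest at HS in scramble cells. In scramble cells it stood at 17.3, 16.5 and 19.2 CPM at Ctrl, 24.5, 24.4 and 18.3 at HS and 18.5, 15.6 and 19.5 in HS+REC. The third HS library lay within the Ctrl range and the other two above it, for a change of 0.35 ± 0.11 (adjusted p = 0.018), and the HS+REC change was 0.02 ± 0.11 (adjusted p = 0.90). Leaving out any of Ctrl scramble replicates 1 and 2 and HS scramble replicates 1 and 2 ended the HS call of PER1, with adjusted p up to 0.098 over the leave-one-out fits. In siLonp1 cells PER1 stood at 13.6, 12.9 and 13.0 CPM at Ctrl, 14.1, 18.1 and 15.1 at HS and 16.7, 13.1 and 15.6 in HS+REC. There the HS libraries all lay above Ctrl, but the change of 0.26 ± 0.12 did not pass (adjusted p = 0.085). It passed without HS siLonp1 replicate 1 or HS scramble replicate 3 (adjusted p down to 0.044), with no filter on low counts and in a fit of only the groups compared (adjusted p down to 0.015), and the difference in the HS change between arms was -0.09 ± 0.16 (adjusted p = 0.85).

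PER2, the period gene tied to heat shock factor 1 (hg38 chr2:238244044-238290102, minus strand), climbed through the recovery hour. Scramble cells held 38.2, 37.0 and 39.0 CPM at Ctrl, 46.6, 48.2 and 41.9 at HS and 59.2, 58.0 and 51.0 after HS+REC, with no overlap between the 3 groups. It rose by 0.26 ± 0.08 at HS (adjusted p = 0.015) and by 0.56 ± 0.08 at HS+REC (adjusted p = 5.5e-06). Leaving out Ctrl scramble replicate 2 or either of HS scramble replicates 1 and 2 ended the HS call, with adjusted p up to 0.077. In siLonp1 cells PER2 stood at 38.6, 41.9 and 37.2 CPM at Ctrl, 36.1, 45.7 and 45.3 at HS and 66.2, 65.6 and 61.6 in HS+REC. The first HS library there lay below every Ctrl library, the HS change was 0.11 ± 0.08 (adjusted p = 0.30), or 0.21 without that library, where it passed, and the HS+REC rise was 0.72 ± 0.08 (adjusted p = 9.9e-08). The stretch printed for PER2 holds its D-box letters 3 bases before the start.

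PER3, the third period gene (hg38 chr1:7784291-7845177, plus strand), rose at HS+REC as PER2 did. In scramble cells it stood at 7.004, 6.63 and 6.49 CPM at Ctrl, 6.99, 7.53 and 7.24 at HS and 8.83, 7.71 and 7.61 in HS+REC. HS+REC lay wholly above Ctrl, a rise of 0.26 ± 0.08 (adjusted p = 0.013) whose call was lost without Ctrl scramble replicate 3 or HS+REC scramble replicate 1 (adjusted p up to 0.098) and with library size scaling (adjusted p = 0.079). In siLonp1 cells PER3 stood at 7.51, 7.56 and 7.15 CPM at Ctrl, 7.87, 8.73 and 8.76 at HS and 9.47, 9.21 and 9.18 in HS+REC, a rise of 0.33 ± 0.08 at HS+REC (adjusted p = 0.0019). Its HS changes were 0.11 ± 0.08 in scramble and 0.19 ± 0.08 in siLonp1 cells and did not pass, and the latter passed without HS siLonp1 replicate 1 (adjusted p = 0.044) and with the filter at CPM above 1 in all libraries (adjusted p = 0.040). The opposite-strand gene UTS2, which shares 868 exonic bases with PER3, had 0 to 1 counts.

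CRY1, a repressor that binds CLOCK and ARNTL (hg38 chr12:106991364-107093549, minus strand), dipped at HS and returned. Its scramble libraries stood at 28.2, 28.4 and 27.6 CPM at Ctrl, 23.5, 22.7 and 24.1 at HS and 28.4, 31.5 and 27.2 in HS+REC. In siLonp1 cells it stood at 35.5, 35.1 and 34.3 CPM at Ctrl, 27.8, 26.6 and 25.2 at HS and 36.6, 41.2 and 40.5 in HS+REC. All HS libraries lay below all Ctrl libraries of their arm, and CRY1 fell by 0.26 on the log2 scale in scramble (SE 0.07, adjusted p = 0.0037) and by 0.40 in siLonp1 cells (SE 0.07, adjusted p = 2.8e-05). From HS to HS+REC it rose by 0.31 ± 0.07 (adjusted p = 0.0010) and 0.57 ± 0.07 (adjusted p = 2.9e-07). Against Ctrl, CRY1 in HS+REC was 0.05 ± 0.07 in scramble (adjusted p = 0.58) and 0.17 ± 0.06 in siLonp1 cells (adjusted p = 0.030), the latter call being lost without any of the Ctrl siLonp1 libraries or HS+REC siLonp1 replicate 2 or 3 (adjusted p up to 0.10).

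CRY2, the second cryptochrome (hg38 chr11:45847118-45883248, plus strand), was lower after recovery and never rose. Its scramble libraries stood at 20.6, 22.1 and 19.8 CPM at Ctrl, 20.3, 22.2 and 19.3 at HS and 16.9, 13.3 and 13.4 in HS+REC. HS overlapped Ctrl with a change of -0.01 ± 0.11, and HS+REC lay below it with -0.52 ± 0.11 (adjusted p = 0.00036). In siLonp1 cells CRY2 stood at 16.8, 15.8 and 17.5 CPM at Ctrl, 12.2, 13.5 and 13.5 at HS and 9.62, 9.38 and 13.3 in HS+REC. It was lower already at HS there, by -0.36 ± 0.11 (adjusted p = 0.011), and by -0.64 ± 0.11 at HS+REC (adjusted p = 4.3e-05). The difference in the HS change between arms was -0.35 ± 0.15 and did not pass (adjusted p = 0.28), except in a fit of only the groups compared (adjusted p = 0.046). The ratio of CRY1 to CRY2 counts within a library, which needs no scaling, went from 1.35 ± 0.058 in Ctrl scramble to 2.03 ± 0.34 in HS+REC scramble cells, and from 2.09 ± 0.13 to 3.75 ± 0.67 in siLonp1 cells (SD, n = 3).

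NR1D1, the repressor of ARNTL known as REV-ERB alpha (hg38 chr17:40092793-40100589, minus strand), was the 1 clock gene whose HS change differed between arms. In scramble cells it stood at 20.5, 18.01 and 19.3 CPM in Ctrl and 25.8, 27.7 and 22.2 in HS. In siLonp1 cells it stood at 31.8, 35.8 and 29.4 CPM in Ctrl and 22.1, 25.6 and 21.7 in HS. The HS libraries thus lay wholly above Ctrl in scramble and wholly below Ctrl in siLonp1 cells.

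The HS changes of NR1D1 were 0.39 ± 0.14 in scramble (adjusted p = 0.030) and -0.49 ± 0.14 in siLonp1 cells (adjusted p = 0.0057). Their difference, siLonp1 minus scramble, was -0.88 ± 0.19 (adjusted p = 0.018), among 1.39% of all genes with a lower and 0.475% with a higher HS change in siLonp1 cells. The call on this difference did not survive leaving out any 1 of 6 libraries, namely replicate 2 of either Ctrl group, HS scramble replicates 1 and 2, and HS siLonp1 replicates 1 and 3, where adjusted p reached 0.069. Over all 18 leave-one-out fits the difference ran from -0.97 to -0.80. The HS call in scramble cells ended when Ctrl scramble replicate 2 or 3, or replicate 1 or 2 of HS scramble, was left out (adjusted p up to 0.13), and DESeq2 gave it an adjusted p of 0.067. No clock gene passed for a higher HS change in siLonp1 cells, and the count was also 0 at an unadjusted p below 0.05 and by DESeq2.

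In HS+REC, NR1D1 spread widely between libraries. It stood at 36.3, 24.5 and 28.4 CPM in scramble and 30.5, 28.1 and 42.9 in siLonp1 cells. Against Ctrl the change was 0.63 ± 0.14 in scramble (adjusted p = 0.00068) and 0.06 ± 0.13 in siLonp1 cells (adjusted p = 0.72), where HS+REC overlapped Ctrl. The difference between arms was -0.56 ± 0.19 (adjusted p = 0.15) and passed without HS+REC siLonp1 replicate 3, at -0.77 (adjusted p = 0.015), and with no filter on low counts, at -0.58 (adjusted p = 0.0018). With the filter, no clock gene passed by edgeR for the HS+REC difference, where 0.686% of all genes had a higher and 0.896% a lower change in siLonp1 cells. At an unadjusted p below 0.05 there was 1 lower clock gene, NR1D1, and 0 higher, and DESeq2 called 0.

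NR1D1 shares 473 exonic bases with THRA, a thyroid hormone receptor gene on the opposite strand, and the strand setting of the counting is not given in the sources used here. THRA had 733 to 1236 counts, close to the depth of NR1D1. Its HS changes were 0.14 ± 0.07 in scramble and 0.08 ± 0.07 in siLonp1 cells, neither past the threshold, with a difference between arms of -0.06 ± 0.10 (adjusted p = 0.85). In Ctrl cells THRA was lower in siLonp1, by -0.20 ± 0.07 (adjusted p = 0.031), where NR1D1 was higher. Reads shared with THRA were not separable here.

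**Figure D3:**
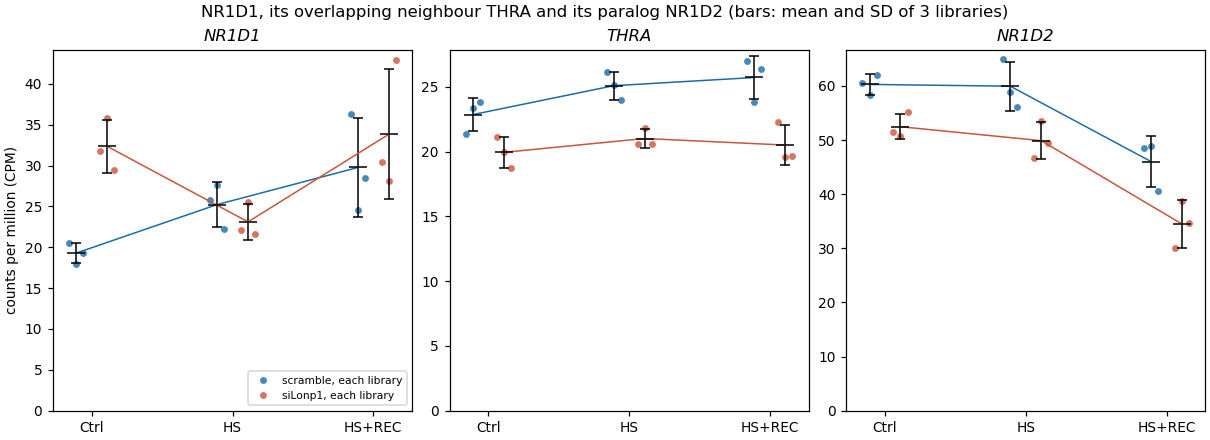
CPM (y axis, from 0) of NR1D1, its opposite-strand neighbour THRA and its paralog NR1D2 in each library at Ctrl, HS and HS+REC (x axis), scramble in blue and siLonp1 in red, with black bars for the mean and SD of 3 libraries. The NR1D1 lines cross between Ctrl and HS, from 19.3 to 25.2 CPM in scramble and from 32.3 to 23.1 in siLonp1 cells, while the siLonp1 line stays below the scramble line for THRA and NR1D2.

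NR1D2, the paralog REV-ERB beta (hg38 chr3:23945286-23980617, plus strand), did not share that pattern. Scramble libraries of NR1D2 held 60.5, 58.2 and 62.1 CPM at Ctrl, 64.9, 58.8 and 56.1 at HS and 48.6, 48.9 and 40.5 in HS+REC. In siLonp1 cells it stood at 51.4, 50.8 and 55.1 CPM at Ctrl, 46.7, 53.5 and 49.4 at HS and 29.99, 38.7 and 34.7 in HS+REC. HS overlapped Ctrl in both arms, with changes of -0.01 ± 0.08 and -0.07 ± 0.08, and HS+REC lay wholly below Ctrl. NR1D2 changed at HS+REC by -0.39 ± 0.08 in scramble (adjusted p = 0.00062) and -0.61 ± 0.09 in siLonp1 cells (adjusted p = 2.8e-06), and the difference between arms was -0.22 ± 0.12 (adjusted p = 0.46).

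BHLHE40, the E-box-binding repressor (hg38 chr3:4979437-4985323, plus strand), peaked at HS in both arms. The scramble libraries had 85.4, 78.3 and 79.2 CPM at Ctrl, 140, 134 and 123 at HS and 101, 88.5 and 89.6 in HS+REC. In siLonp1 cells it stood at 121, 129 and 118 CPM at Ctrl, 211, 213 and 214 at HS and 158, 151 and 143 in HS+REC. No libraries of different conditions overlapped within an arm.

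BHLHE40 rose at HS by 0.71 ± 0.06 in scramble (adjusted p = 5.3e-09) and 0.79 ± 0.06 in siLonp1 cells (adjusted p = 5.3e-10). From HS to HS+REC it fell by 0.51 on the log2 scale in scramble (SE 0.06, adjusted p = 1.6e-06) and by 0.50 in siLonp1 cells (SE 0.06, adjusted p = 1.4e-06). It was still above Ctrl at HS+REC, by 0.20 ± 0.06 (adjusted p = 0.014) and 0.30 ± 0.06 (adjusted p = 0.00043). The call in scramble cells was lost without Ctrl scramble replicate 2 or 3 or HS+REC scramble replicate 1 (adjusted p up to 0.11), and at library size scaling. Of 12 immediate-early genes listed beside the clock genes, 11 rose at HS in scramble cells, against 18.6% of all genes, and 9 of the 12 fell from HS to HS+REC, against 12.7%. The antisense gene BHLHE40-AS1, with 451 shared exonic bases, had 4 to 23 counts.

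DBP, the D-box-binding output factor (hg38 chr19:48630030-48637379, minus strand), rose most of the 10 genes. Counts were low, and scramble libraries stood at 1.99, 1.87 and 1.99 CPM at Ctrl, 3.34, 3.42 and 3.54 at HS and 4.30, 5.11 and 5.82 in HS+REC. In siLonp1 cells it stood at 2.14, 2.05 and 2.25 CPM at Ctrl, 3.94, 3.55 and 3.70 at HS and 6.28, 6.31 and 5.29 in HS+REC. The 3 conditions were wholly apart in each arm and in the same order.

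DBP rose at HS by 0.81 ± 0.13 in scramble (adjusted p = 2.5e-05) and 0.80 ± 0.13 in siLonp1 cells (adjusted p = 1.9e-05). At HS+REC it was raised by 1.38 ± 0.12 (adjusted p = 2.5e-09) and 1.47 ± 0.12 (adjusted p = 5.2e-10), which is 2.60-fold and 2.78-fold. The differences between arms were -0.01 ± 0.18 at HS and 0.09 ± 0.18 at HS+REC, and neither passed. DBP shares 661 exonic bases with SPHK2, a sphingosine kinase gene on the opposite strand with 772 to 2321 counts. SPHK2 changed at HS by 0.13 ± 0.09 in scramble and -0.06 ± 0.09 in siLonp1 cells, neither past the threshold, and rose at HS+REC by 0.84 ± 0.08 and 0.92 ± 0.08. How far SPHK2 reads enter the DBP counts was not tested. The 6 fibroblast markers summed to between 40.4 and 46.0 CPM in Ctrl, 41.3 and 45.3 in HS and 60.6 and 61.98 in HS+REC libraries of the scramble arm. In the siLonp1 arm the sum lay between 21.1 and 22.6 CPM in Ctrl, 24.6 and 28.4 in HS and 44.8 and 46.2 in HS+REC. Of the 2 that passed the filter, COL1A1 went from 9.21 to 17.0 to 30.2 CPM and LUM from 33.8 to 25.7 to 30.98 CPM in scramble cells. Of the leukocyte markers that passed, CD14 went from 0.401 to 0.766 to 0.855 CPM and LYZ from 8.76 to 8.54 to 8.32 CPM in scramble cells. In siLonp1 cells CD14 went from 0.380 to 1.52 to 1.57 CPM and LYZ from 3.06 to 3.20 to 3.33 CPM. The part of either list in the DBP result was not tested.

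The effect of silencing was read within each condition, siLonp1 against scramble. At Ctrl 3 of 10 clock genes were higher (CRY1, NR1D1 and BHLHE40), against 26.3% of all genes, and 3 were lower (CLOCK, PER1 and CRY2), against 22.9%. At HS 3 were higher (PER3, CRY1 and BHLHE40), against 28.1%, and 4 lower (CLOCK, PER1, CRY2 and NR1D2), against 26.7%. At HS+REC 4 were higher (PER2, PER3, CRY1 and BHLHE40), against 26.8%, and 3 lower (CLOCK, CRY2 and NR1D2), against 27.3%. These shares lie near those of all genes, so the counts are no result about clock genes. The silencing changes share libraries with the heat changes of each arm.

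BHLHE40 and CRY1 were higher, and CLOCK and CRY2 lower, in siLonp1 cells in all 3 conditions. BHLHE40 was higher by 0.60 ± 0.06, 0.68 ± 0.06 and 0.70 ± 0.06 at Ctrl, HS and HS+REC, and every siLonp1 library lay above every scramble library of its condition. CLOCK was changed by -0.42 ± 0.08, -0.58 ± 0.08 and -0.64 ± 0.08, again with no overlap (adjusted p = 0.00021 or lower). CRY1 was higher by 0.32 ± 0.07, 0.18 ± 0.07 and 0.44 ± 0.07, and its HS call (adjusted p = 0.028) ended when replicate 1 or 2 of either HS group was left out. CRY2 was changed by -0.32 ± 0.11, -0.66 ± 0.11 and -0.44 ± 0.11, and its Ctrl call (adjusted p = 0.017) was lost without Ctrl scramble replicate 2 or Ctrl siLonp1 replicate 2.

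PER1 was lower in siLonp1 cells at Ctrl, by -0.42 ± 0.12 (adjusted p = 0.0046), and at HS, by -0.51 ± 0.11 (adjusted p = 0.00061), with no overlap of libraries, and its HS+REC change was -0.24 ± 0.11 (adjusted p = 0.080), which passed without HS+REC scramble replicate 2 or HS+REC siLonp1 replicate 1 (adjusted p down to 0.028). NR1D1 was higher at Ctrl by 0.75 ± 0.14 (adjusted p = 0.00010) and overlapped at HS and HS+REC, where it passed only without HS+REC scramble replicate 1, at 0.35 (adjusted p = 0.034). NR1D2 changed by -0.20 ± 0.08 at Ctrl (adjusted p = 0.053, though past the threshold under 7 of the other settings and without Ctrl siLonp1 replicate 3, replicate 3 of HS scramble or HS+REC scramble, or HS+REC siLonp1 replicate 1 or 2), -0.27 ± 0.08 at HS (adjusted p = 0.011) and -0.42 ± 0.09 at HS+REC (adjusted p = 0.00030). Leaving out replicate 1 of either HS group ended the NR1D2 call at HS.

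PER3 calls at HS, 0.22 ± 0.08 (adjusted p = 0.028), and HS+REC, 0.21 ± 0.08 (adjusted p = 0.035), rested on small differences. Replicates 1 and 3 of HS scramble and replicates 2 and 3 of HS siLonp1 each carried the HS call, and replicates 2 and 3 of HS+REC scramble and every HS+REC siLonp1 library the HS+REC call, which ended when any 1 of them was left out. Library size scaling and no filter on low counts ended both calls, DESeq2 ended the HS call and a fit of only the groups compared the HS+REC call. PER2 was higher at HS+REC by 0.20 ± 0.08 (adjusted p = 0.037), a call lost without HS+REC scramble replicate 3 or HS+REC siLonp1 replicate 1 or 2. DBP did not pass in any condition, with changes of 0.14 ± 0.14, 0.12 ± 0.12 and 0.23 ± 0.11, the last of which passed without replicate 3 of either HS+REC group (adjusted p down to 0.016). In the same comparisons the summed fibroblast markers stood at 40.4 to 46.0 CPM in Ctrl scramble and 21.1 to 22.6 CPM in Ctrl siLonp1 libraries, where LUM went from 33.8 to 11.997 CPM and COL1A1 from 9.21 to 9.70. The summed leukocyte markers lay between 8.94 and 9.34 CPM in Ctrl scramble and between 2.89 and 3.93 CPM in Ctrl siLonp1 libraries, where LYZ went from 8.76 to 3.06 CPM. CD14 was higher in siLonp1 cells at HS (0.766 to 1.52 CPM) and HS+REC (0.855 to 1.57 CPM), where LYZ was again lower. At HS and HS+REC the fibroblast sums lay between 24.6 and 28.4 and between 44.8 and 46.2 CPM in siLonp1 libraries, below the scramble sums given above. The part of either list in these differences was not tested.

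**Figure D4:**
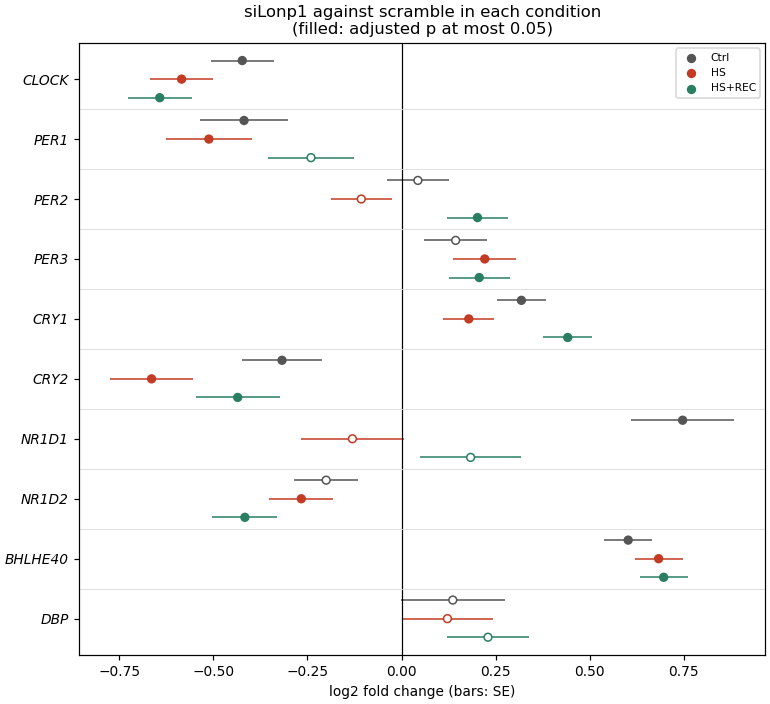
Log2 fold change of siLonp1 against scramble (x axis, bars show the SE) of the 10 clock genes (y axis) at Ctrl, HS and HS+REC, with filled points for an adjusted p of at most 0.05. BHLHE40 and CRY1 lie right of 0 and CLOCK and CRY2 left of 0 in all 3 conditions, and NR1D1 lies far right at Ctrl (0.75) but left of 0 at HS (-0.13).

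The spread of the 6 group means set the members apart by size. By means of log2 CPM (prior count of 2), the highest group mean was 2.99 times the lowest for DBP, 2.63 times for BHLHE40 and 1.96 times for CRY2, and 1.38 times for PER3, the steadiest of the 10. Over the 18 libraries, the genes most like DBP in log2 CPM were FKBP4 (Pearson r = 0.987), LMAN2L (r = 0.986) and SRRM3 (r = 0.985). Those most like BHLHE40 were NR4A1 (r = 0.988), CSRNP2 (r = 0.968) and JAG1 (r = 0.968), and those most like CRY2 were ANKMY1 (r = 0.966), URB1 (r = 0.957) and TTLL4 (r = 0.955). The libraries fall into 6 groups, so these r values describe shared group means and carry no test. The places also depend on the measure. By Spearman rho, LMAN2L stood at place 38.5 and SRRM3 at 16 for DBP, and TTLL4 at 12 for CRY2. By Pearson r over the group means, FKBP4 and CSRNP2 stood at place 11, JAG1 at 30 and TTLL4 at 23. All other places of these genes were within the first 10. Among the clock genes themselves, CRY2 and NR1D2 were most alike (r = 0.853), followed by PER2 and DBP (r = 0.850) and CRY2 and CLOCK (r = 0.835).

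Beyond the 10 genes, 29 other clock genes had been listed and 22 passed the filter, while CIART, FBXL21, HLF, PASD1, RORB and USP2 were among those that did not. At HS 6 of the 22 rose and 4 fell in scramble cells, against 18.6% and 17.3% of all genes, and 6 rose and 5 fell in siLonp1 cells, against 20.2% and 22.1%. At HS+REC 6 rose and 5 fell in each arm, against 21.8% and 20.5% of all genes in scramble and 24.6% and 26.6% in siLonp1 cells. Under silencing 8 were higher and 4 lower at Ctrl (26.3% and 22.9% of all genes), 7 and 7 at HS (28.1% and 26.7%), and 9 and 6 at HS+REC (26.8% and 27.3%). The difference between arms at HS passed for 0 of the 22, where 0.475% of all genes had a higher and 1.39% a lower change. At HS+REC it passed for 0 as well, where 0.686% had a higher and 0.896% a lower change in siLonp1 cells. Nothing particular to these genes is read from the counts.

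ARNTL, the partner of CLOCK, rose at HS+REC in scramble cells by 0.35 ± 0.09 (adjusted p = 0.0020), changed by 0.18 ± 0.08 in siLonp1 cells (adjusted p = 0.072), and was higher in siLonp1 cells by 0.47 ± 0.09, 0.43 ± 0.09 and 0.30 ± 0.08 at Ctrl, HS and HS+REC, each past the threshold. Its paralog ARNTL2 was lowered at HS+REC by -0.28 ± 0.06 in scramble and -0.46 ± 0.06 in siLonp1 cells. NPAS2, the paralog that can stand in for CLOCK, was lowered at HS+REC by -0.27 ± 0.08 and -0.47 ± 0.08 but was higher in siLonp1 cells by 0.69 ± 0.08, 0.48 ± 0.08 and 0.49 ± 0.08, where CLOCK was lower. Per kilobase, Ctrl scramble cells held 10.8 CPM of ARNTL2, 8.30 of NPAS2 and 3.05 of ARNTL.

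BHLHE41, the DEC2 paralog of BHLHE40, rose at HS+REC by 0.93 ± 0.18 in scramble (adjusted p = 0.00018) and 1.87 ± 0.21 in siLonp1 cells (adjusted p = 1.1e-07), from 1.05 to 2.01 and from 0.504 to 1.84 CPM. The difference between arms did not pass. Unlike BHLHE40 it was lower in siLonp1 cells at Ctrl, by -1.06 ± 0.23 (adjusted p = 0.00057). RORA, the nuclear receptor that activates ARNTL, rose at HS by 0.68 ± 0.16 (adjusted p = 0.0016) and 0.88 ± 0.21 (adjusted p = 0.0013) and was lower in siLonp1 cells by -1.46 ± 0.19 at Ctrl. NFIL3, a repressor at D-box letters, rose at HS+REC by 0.86 ± 0.07 and 0.79 ± 0.07. CSNK1E, a kinase of PER proteins, passed at HS in scramble (1.51 ± 0.58) and at HS+REC in siLonp1 cells (2.64 ± 0.54) from 6 to 106 counts, and it shares 1316 exonic bases with a readthrough gene, whose part in these counts was not tested. Its Ctrl libraries reached at most 0.379 CPM in scramble and 0.383 in siLonp1 cells, so it passed the filter only through heated libraries. Both calls are thus tied to the libraries that let it be tested.

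**Figure D5:**
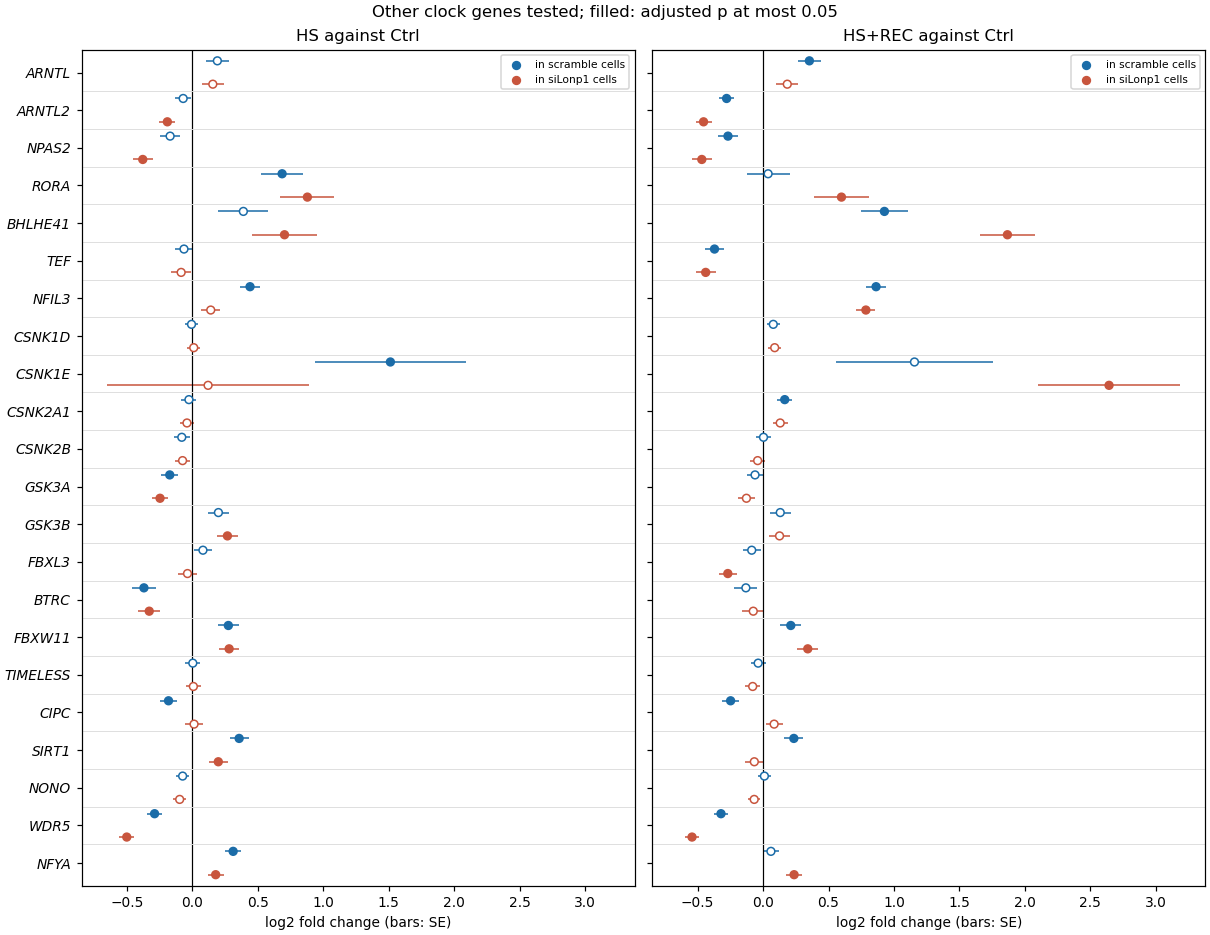
Log2 fold change against Ctrl (x axis, bars show the SE) of the 22 other clock genes tested (y axis) after HS on the left and HS+REC on the right, in scramble (blue) and siLonp1 cells (red), with filled points for an adjusted p of at most 0.05. BHLHE41 and NFIL3 lie right of 0 in both arms after HS+REC, CSNK1E has the widest SE, and ARNTL2 and NPAS2 lie left of 0.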

How the data were processed

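RNA of SW620 cells was sequenced from 18 libraries (3 in each of 6 groups, TruSeq stranded mRNA). The authors deposited raw counts per gene, made with STAR 2.7.3a on hg38 and featureCounts in R 3.6.3, per the labels and the methods, and the strand setting, the rule for reads with several matches and the annotation release are not given in the sources used here. The methods call the replicates independent, and p-values measure the spread between these libraries. From the deposited counts, edgeR 4.0.16 in R 4.3.3 (TMM scaling, CPM above 1 in at least 3 libraries, 12832 genes tested) gave 1 quasi-likelihood model of 6 group means and 11 contrasts, with Benjamini-Hochberg adjustment over all genes tested. A gene was called at an adjusted p of at most 0.05. Values are CPM at TMM-scaled library sizes, SE is the absolute log2 fold change over the square root of F, and likeness used log2 CPM with a prior count of 2. Libraries of a group differed by more than sampling noise (chi-square per degree of freedom 3.48 to 25.8), so none was counted as a duplicate. HS scramble replicate 3 gave 15.2 and 18.9 with replicates 1 and 2, which gave 4.05 with each other. HS siLonp1 replicate 1 gave 14.2 and 13.1 with replicates 2 and 3, which gave 3.48. Every pair in HS+REC lay at 14.7 or above. Totals of 30815860 to 47279297 counts set the precision, and 5740 genes had 0 counts throughout. Gene models came from GENCODE 44 (hg38) and promoter windows from RefSeq. All 10 clock genes were described. Other listed clock genes were counted and named when they passed and changed over 1.5-fold in an HS or HS+REC comparison, ARNTL, ARNTL2 and NPAS2 always, together with genes that overlap a clock gene, LONP1, HSPA1A and, for the 3 genes of widest range, the 3 most alike genes. The clock genes and lists were chosen with earlier results of these data known. The fit was tested on simulated data. Alternatives were RLE scaling, library size scaling, 2 filters, DESeq2 1.42.0, fits of only the groups compared, the likelihood ratio test of edgeR, a replicate block, stricter limits and leaving out each library.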

Additional observations from a re-analysis of the deposited data

Results flagged for a closer look

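The HS change of NR1D1 differed between the arms by a test of the difference itself, the interaction of siLonp1 and HS in edgeR. It was -0.88 ± 0.19 on the log2 scale (siLonp1 minus scramble, adjusted p = 0.018), with all 3 HS libraries above Ctrl in scramble and all 3 below Ctrl in siLonp1 cells. Over the alternatives other than leaving out a library its adjusted p ran from 1e-07 to 0.032, and over the leave-one-out fits from 0.0041 to 0.069.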

How the results depend on the processing

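There were 110 member values (10 genes in 11 comparisons), 61 of them called, and no called value changed sign under any alternative, while values that passed in neither fit changed sign 35 times, counted over all alternatives and leave-one-out fits. Of the called values 16 lost the call without some library, and 11 others passed without some library. Leaving out 1 library moved the count of clock genes raised at HS from 5 to between 2 and 5 in scramble and from 2 to between 2 and 5 in siLonp1 cells (5 without HS siLonp1 replicate 1), and that raised at HS+REC in scramble from 5 to between 3 and 5. It moved the count higher in siLonp1 cells from 3 to between 1 and 3 at HS and from 4 to between 2 and 5 at HS+REC, and the count of lower interactions from 1 to between 0 and 1 for HS and from 0 to between 0 and 1 for HS+REC.

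At an FDR of at most 0.01 the counts were 2 raised at HS in scramble (BHLHE40 and DBP), 3 raised at HS+REC in scramble, 1 higher in siLonp1 cells at HS, 2 higher at HS+REC and 0 lower in the HS interaction. The shares of all genes at that limit are not given here, so these counts are no result about clock genes. At an FDR of at most 0.05 with a change over 2-fold required as well, 1 gene (DBP) stayed raised at HS+REC in each arm and all other counts of clock genes were 0, the HS interaction included. Of all genes, 3.78% and 4.51% were raised past both limits at HS+REC, and at most 3.42% passed them in any other count. With library size scaling 3 were raised at HS+REC in scramble, 1 was higher in siLonp1 cells at HS and 2 at HS+REC. Over all 12832 genes tested, the raised calls fell too, from 2795 to 2096 at HS+REC in scramble. Genes called higher in siLonp1 cells fell from 3601 to 2562 at HS and from 3439 to 2655 at HS+REC. A fit of only the groups compared gave 2 lower HS interactions (CRY2 and NR1D1), and no filter on low counts gave 1 lower HS+REC interaction (NR1D1). Among single genes, library size scaling also ended the calls of CRY1 at HS+REC in siLonp1 cells, CRY1 under silencing at HS and PER2 under silencing at HS+REC and let PER2 pass under silencing at HS and PER1 at HS+REC, and no filter on low counts ended that of CRY1 at HS+REC in siLonp1 cells and let PER1 pass under silencing at HS+REC.

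Library size scaling moved the median log2 fold change of all genes by at most 0.097 in size, and the raised share of all calls from 51.5% to 34.9% at HS+REC in scramble, 48.02% to 35.1% at HS+REC in siLonp1, 52.7% to 36.3% from HS to HS+REC in scramble, and 53.4% to 39.2%, 51.3% to 35.0% and 49.6% to 37.4% for silencing at Ctrl, HS and HS+REC. Replicate numbers did not pair the libraries, since 6 of 27 same-number pairs correlated above 0.1 (r from -0.38 to 0.46) and the own number correlated best in 9. With the replicate block no member call changed, and the NR1D1 interaction with HS was -0.88 (adjusted p = 0.032).

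The labels give no clock time, depth left DBP and PER3 with the fewest counts, strand and shared reads could not be checked for NR1D1 with THRA and DBP with SPHK2, and p-values rest on 3 libraries a group.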
